A study of Mus musculus with 2 samples.

Results

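Mir221 and Mir222 are neighbouring miRNA genes on the X chromosome, and both were present at a low to moderate level in the limb of the mouse embryo at embryonic day 13.5. They were taken from the count tables by their Ensembl identifiers, ENSMUSG00000065422 for Mir221 and ENSMUSG00000065471 for Mir222. Both were found, so the pair makes up 2 of the 1973 miRNA genes counted. MicroRNA sequencing was run on total RNA of limbs, with the size range of the RNA labelled as under 30. The series holds 1 group with 2 biological replicates. The embryos were of strain B6NCrl, 13.5 days old, healthy, of mixed sex, and without any allele or agent named in the labels. The replicates carry separate tissue identifiers and the same donor label. The labels do not say whether limbs were pooled over embryos or litters, so the spread between replicates may be partly technical.

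The hairpin that each gene encodes is cut into short mature RNAs, and one of these guides a silencing complex to messenger RNAs whose 3′ untranslated regions pair with bases 2 to 8 of the mature RNA, the seed. The miR-221 and miR-222 arms are known for repressing Cdkn1b, which encodes the cyclin-dependent kinase inhibitor p27, and Kit, a receptor tyrosine kinase of blood, pigment and germ cells. In muscle cell cultures they are known to fall as myoblasts leave the cell cycle and differentiate. They are also expressed in vessel wall cells, where they are linked to proliferation of smooth muscle. No messenger RNA was measured here, so none of these relations was tested, and a bulk tissue library cannot tell fewer cells of a type from less RNA per cell.

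The mature sequences are printed to show what the genes share and where they part. They are RefSeq entries on GRCm38.p6, given 5′ to 3′, with the seed in capitals.
miR-221-3p: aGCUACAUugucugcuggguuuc
miR-222-3p: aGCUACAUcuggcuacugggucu
miR-1928: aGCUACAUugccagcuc
miR-221-5p: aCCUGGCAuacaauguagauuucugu
The 3p arms of Mir221 and Mir222 are identical over their first 8 bases and match at 11 of 23 positions when aligned from the 5′ end without gaps. This count does not credit later bases that match only when an arm is shifted. The same seed occurs in 1 other mouse entry of the table, miR-1928, from the gene Mir1928 on chromosome 1. The 5p arm of Mir221 has a seed that no other entry carries. The table holds no 5p arm for Mir222.

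The hairpins are printed because the deposited counts are per hairpin gene, so arms cannot be separated. Annotated mature arms are in capitals.
Mir221: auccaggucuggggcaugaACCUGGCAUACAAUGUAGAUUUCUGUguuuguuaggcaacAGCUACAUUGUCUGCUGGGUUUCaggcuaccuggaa
Mir222: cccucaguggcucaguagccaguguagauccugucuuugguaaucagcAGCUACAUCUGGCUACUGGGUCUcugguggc
On mm10, Mir221 lies on the minus strand of chromosome X at 19146294 to 19146388, and Mir222 on the same strand at 19146893 to 19146971. Since the genes are read toward lower coordinates, Mir222 comes first, and 504 bases separate the hairpins. No other gene of GENCODE M21 overlaps the pair, so each hairpin is annotated as its own exon outside any host gene. The nearest annotated gene upstream on the same strand is Gm14636, a processed transcript. Read in the direction of transcription, its annotated span ends 10009 bases before Mir222. The hairpins share at most 9 bases with each other, and neither shares more than 12 with any other annotated miRNA gene. This bears on the counts, because a read with more than 1 match in the genome was not assigned to a gene. Matches outside annotated miRNA genes were not searched.

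The libraries were sequenced to 12407140 reads in replicate 1 and 12657170 in replicate 2. Sense counts in miRNA genes were 5927321 and 6003632, and CPM values are these counts scaled to a common total per library, without division by gene length. Detected means 10 or more sense counts in both replicates, which 372 genes (18.85%) reached. For a count of 0 the limit is 3 counts, or 0.5061 CPM in replicate 1 and 0.4997 CPM in replicate 2. Intervals and limits here cover counting error only.

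Both members were detected in both libraries. Mir221 had 460 sense counts in replicate 1 and 409 in replicate 2, or 77.6 and 68.1 CPM. Mir222 had 287 and 268 sense counts, or 48.4 and 44.6 CPM. Mir221 was thus the higher gene in each library, and the values of the 2 genes did not overlap. The exact Poisson 95% intervals for Mir221 ran from 70.7 to 85.0 CPM in replicate 1 and from 61.7 to 75.1 CPM in replicate 2. For Mir222 they ran from 43.0 to 54.4 CPM and from 39.5 to 50.3 CPM. No interval of Mir221 reached one of Mir222. The mean level was 72.9 ± 6.7 CPM for Mir221 and 46.5 ± 2.7 CPM for Mir222 (SD, n = 2).

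**Figure D1:**
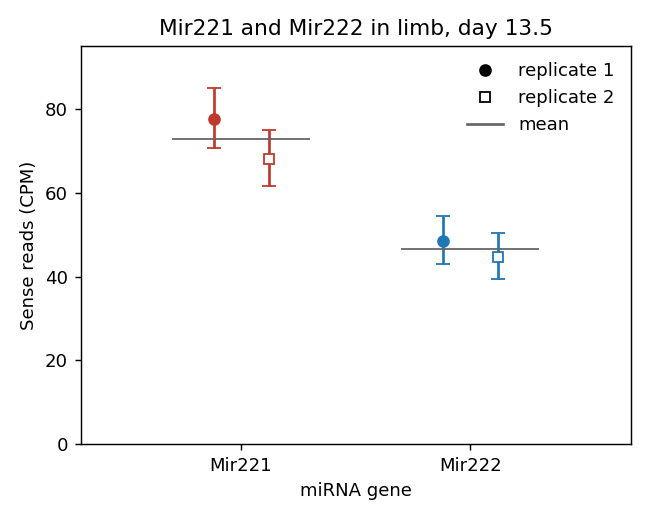
Sense reads in CPM (vertical axis) for Mir221 and Mir222 (horizontal axis) in replicate 1 (filled circles) and replicate 2 (open squares), with exact Poisson 95% intervals and the mean as a line. Mir221 lay at 77.6 and 68.1 CPM and Mir222 at 48.4 and 44.6 CPM, with no overlap between the genes.

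Neither gene had an antisense count in either library, so the reads come from the annotated strand as far as this depth can show. The third gene with the same seed, Mir1928, had 0 sense counts in both libraries. With Mir1928 placed at the limit of 3 counts per library, the observed count of Mir221 was 153-fold higher in replicate 1 and 136-fold higher in replicate 2. That of Mir222 was 95.7-fold and 89.3-fold higher. These folds leave out the counting error of Mir221 and Mir222. Among genes annotated with this seed, the counts therefore came from the X-linked pair. The pair held 747 sense counts in replicate 1 and 677 in replicate 2, which is 0.0119% ± 0.0009 of all sense counts in genes (SD, n = 2).

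Within the pair, Mir221 took 61.6% of the counts in replicate 1 (exact Clopper-Pearson 95% interval 58.0% to 65.1%) and 60.4% in replicate 2 (56.6% to 64.1%). The ratio of Mir221 over Mir222 was 1.60-fold in replicate 1 and 1.53-fold in replicate 2, so the proportion was nearly the same in each library. On the log2 scale it was 0.65 ± 0.05 (SD, n = 2), well above the spread between replicates. The ratio was not tested, because the smallest two-sided exact permutation p that 2 replicates allow is 0.5. Scaled per base of hairpin, Mir221 being the longer at 95 bases against 79 for Mir222, the ratio was 1.30-fold, a log2 ratio of 0.38. Both annotated 3p arms are 23 bases long, so this scale follows the hairpin and not the mature arm. Whether hairpin length affects the counts was not tested. Hairpin GC content was 47.4% for Mir221 and 54.4% for Mir222. The part of sequence-dependent ligation or amplification in the ratio was not tested.

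Neighbouring miRNA genes are often made from one transcript, and their mature levels can still lie far apart. Over the whole table, 98 pairs of next neighbours on the same strand lay within 10 kb with both genes detected. For each, the gene downstream in the direction of transcription was set over the upstream one, as Mir221 is over Mir222. The log2 ratio was averaged over the 2 libraries and its absolute value taken. It was 0.65 for Mir221 and Mir222, while the median of the 98 pairs was 2.97, with a range of 0.030 to 11.1. They stood closer than most, and 11 pairs were closer still. The pair just closer was Mir363 over Mir92-2, also on the X chromosome, at 0.64, with Mir92-2 uncertain because it shares 22 or more bases with another gene. The pair just wider was Mir494 over Mir329, of the imprinted region on chromosome 12, at 0.71. Without pairs that hold a gene sharing 22 or more bases with another, 9 of the remaining 74 pairs were closer.

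Pairs that share a seed, as Mir221 and Mir222 do, spanned a wide range of differences. Among the 98 pairs, 20 shared a seed between the neighbours, Mir221 and Mir222 included, a count taken after the levels had been seen. Their absolute log2 ratios ran from 0.40 to 8.07 with a median of 1.90, against 2.97 over all 98. Of these 20, 11 hold a gene that shares 22 or more bases with a further gene, among them the widest, and are uncertain. The other 9 ran from 0.40 to 4.70 with a median of 1.18, against 2.75 over the 74 pairs without such genes. Closer than Mir221 and Mir222 were Mir93 over Mir106b, of the Mcm7 gene, at 0.40, and Mir363 over Mir92-2, the second of which is among the uncertain pairs. These pairs share clusters and libraries, and no test of the difference was made.

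**Figure D2:**
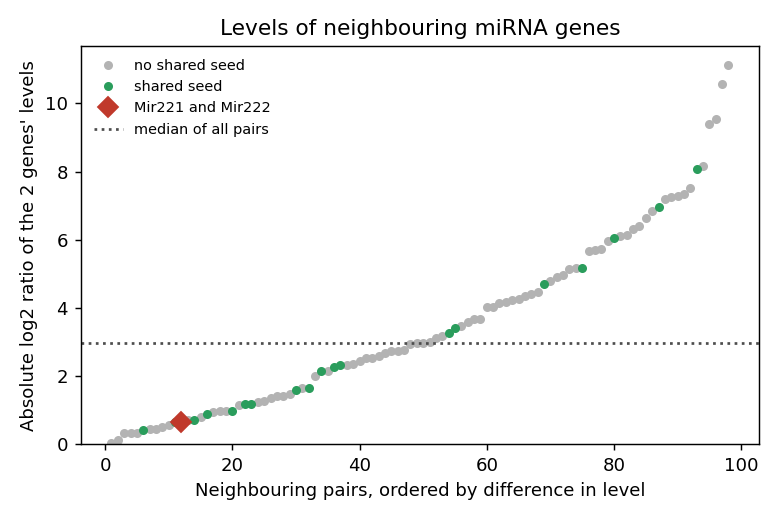
Absolute value of the mean over 2 libraries of the log2 CPM ratio between next neighbours on one strand within 10 kb (vertical axis), for 98 pairs ordered from the smallest to the largest difference (horizontal axis). Mir221 and Mir222 (red diamond) lie at 0.65, with 11 pairs below and the median of all pairs (dotted line) at 2.97, and green points are pairs that share a seed.

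Among the 372 detected genes Mir221 ranked 205th and Mir222 229th by mean CPM. In replicate 1 the ranks were 199 and 225, and in replicate 2 they were 209 and 229. The pair thus sat below the middle of the detected genes, whose median was 106 CPM. Mir221 was at 0.685 and Mir222 at 0.438 of that median. The most abundant gene, at 75238 CPM, was 1033-fold above Mir221 and 1617-fold above Mir222.

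**Figure D3:**
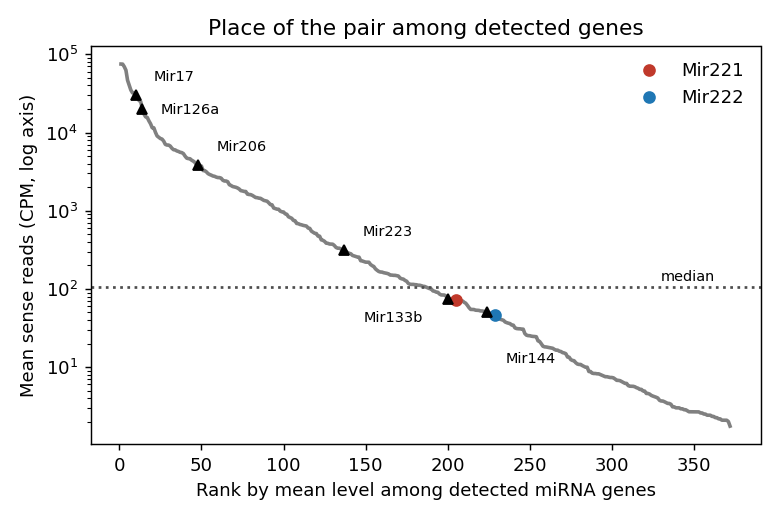
Mean sense reads in CPM (vertical log axis) of the 372 detected miRNA genes in order of rank (horizontal axis), with Mir221 in red, Mir222 in blue, triangles for other named genes and the median of 106 CPM as a dotted line. Mir221 lies at rank 205 and Mir222 at rank 229, beside Mir133b and Mir144 and below Mir17, Mir126a, Mir206 and Mir223.

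The genes closest in level to each member were chosen by distance in log2(CPM + 1) over the 2 libraries, which measures likeness of level in 1 tissue. For Mir221 they were, in order, Mir33, Mir505, Mir19a, Mir760 and Mir190a, with mean levels from 70.4 to 73.6 CPM. The range of these 5 lies within 1 SD of Mir221, so their order is not resolved. Mir505 is also X-linked, and Mir19a belongs to the Mir17 cluster on chromosome 14. For Mir222 the closest were Mir218-2, Mirlet7c-2, Mir7-1, Mir302a and Mir144, from 48.5 to 51.7 CPM. All 5 had means above that of Mir222. Mir218-2 at 48.5 ± 2.8 CPM lay within the spread of Mir222, and it, Mirlet7c-2 and Mir7-1 may be undercounted, since each has a stretch of 22 or more bases in common with a further gene.

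The pair is known for repressing Cdkn1b, which encodes the inhibitor p27. Other miRNA genes are reported to repress it or the related inhibitors p21 and p57, encoded by Cdkn1a and Cdkn1c. A list of 10 genes reported to repress any of these was drawn up, and its members need not share a target. All 10 were detected, against 18.85% of all genes counted. Mir221 and Mir222 were the lowest of the 10. The list held 6.37% ± 0.73 of counts (SD, n = 2), of which the pair made up 0.188% ± 0.007. Mir17, at 30533 ± 4775 CPM, was 419-fold above Mir221 and 656-fold above Mir222. Mir93 and Mir20a, relatives of Mir17 known for repressing Cdkn1a, lay at 11541 ± 1263 and 11502 ± 1592 CPM, and Mir106b at 8702 ± 441 CPM. Next above the pair was the X-linked Mir20b at 198 and 122 CPM in replicates 1 and 2, with a mean 2.20-fold that of Mir221. Its values did not overlap those of either member.

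**Figure D4:**
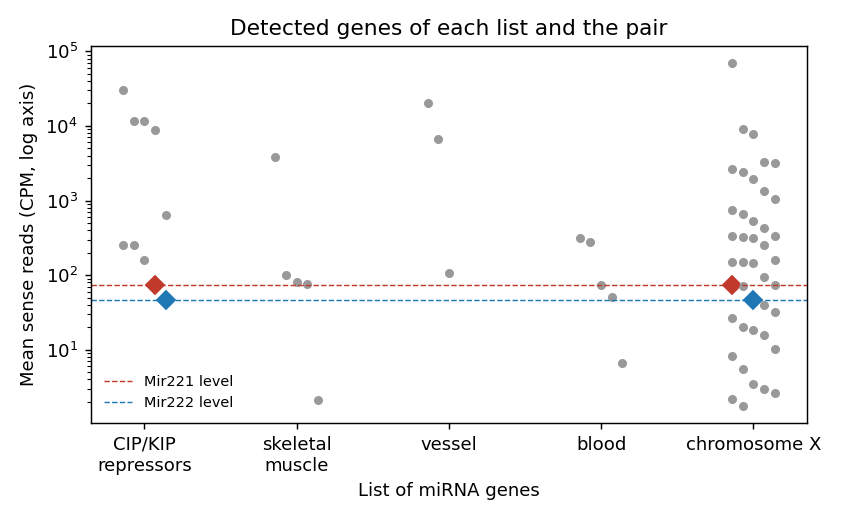
Mean sense reads in CPM (vertical log axis) of the detected genes in 5 lists (horizontal axis), with Mir221 as red and Mir222 as blue diamonds where they belong and dashed lines at their levels. Mir221 and Mir222 are the lowest of the 10 CIP/KIP repressors, lie among the lower skeletal muscle and blood genes and below the 3 detected vessel genes.

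Muscle, vessel and blood genes were set beside the pair because its known sites of expression include these cells. The skeletal muscle gene Mir206, a marker of the muscle that a limb holds, was at 3741 and 3940 CPM. Mir206 was 52.7-fold above Mir221 and 82.5-fold above Mir222. Mir208b and Mir499, which lie in slow myosin genes, were at 101 ± 0.15 and 81.1 ± 10.6 CPM, and Mir133b at 75.3 ± 0.03 CPM. Mir499, with 73.6 and 88.6 CPM, overlapped Mir221 in range, and Mir133b lay between the values of Mir221 in the 2 libraries. Mir133b shares a stretch of 18 or more bases, though not 22, with another miRNA gene, so it may be undercounted. Of the 8 muscle genes counted, 5 were detected, against 18.85% of all genes counted. The list held 0.410% ± 0.015 of counts, nearly all in Mir206. Mir1a-1, Mir133a-1 and Mir133a-2 had 0 or 1 counts in each library, and their levels are uncertain, since each has a near copy among the other miRNA genes over 22 or more bases.

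Vessel genes were all above the pair where detected. Mir126a of endothelium lay at 20233 ± 844 CPM, Mir143 of smooth muscle at 6719 ± 567 CPM and its cluster partner Mir145a at 108 ± 1.4 CPM. Mir145a was 1.48-fold above Mir221 and 2.32-fold above Mir222. The fourth counted vessel gene, Mir145b, had 0 counts in both libraries.

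Among blood genes, the erythroid pair Mir451a and Mir144 came nearest to the members. Mir451a lay at 74.7 and 74.8 CPM, inside the range of Mir221, and Mir144 at 48.8 and 53.1 CPM, just above Mir222. The downstream over upstream ratio of Mir451a over Mir144 was 0.55 on the log2 scale, near that of Mir221 over Mir222. Myeloid Mir223 was at 319 and 317 CPM, Mir155 at 339 and 225 CPM, and Mir150 of lymphocytes at 7.76 and 5.66 CPM. Of 6 blood genes counted, 5 were detected on the sense strand, against 18.85% of all genes counted. The sixth, Mir142b, had 0 sense counts and 2337 and 2543 antisense counts, more than the sense counts of any other blood gene listed, and with both strands counted the blood share was 0.110% in place of 0.0732%. How much of the pair's reads came from muscle, vessel, blood or other cells was not tested.

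On the X chromosome, 42 of 120 counted miRNA genes (35%) were detected, against 330 of 1774 (18.6%) on other chromosomes and 18.85% of all genes counted. By mean CPM Mir221 was 26th and Mir222 28th of the 42. The pair held 0.112% ± 0.016 of the X-linked counts (SD, n = 2). Those were led by Mir322 at 69568 ± 6003 CPM, 955-fold above Mir221, and followed by Mir652, Mir351 and Mir532 at 9045, 7768 and 3270 CPM. Beside Mir221 stood Mir505 at 73.6 ± 3.5 CPM and Mir452 at 71.8 ± 1.1 CPM, and neither differed from it beyond its spread. Below Mir222 the next X-linked gene was Mir325 at 42.3 and 38.5 CPM, under both values of Mir222 and just under its counting interval in each library.

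The libraries were compared gene by gene to see whether the members moved between replicates. A two-sided exact binomial test was run on the 410 genes that reached 10 counts in either replicate, with Benjamini-Hochberg adjustment and a minimum absolute log2 ratio of 1. It called 14 genes, which is 3.41% of those tested, and 0 of the 2 members, neither of which had an unadjusted p under 0.05. With a count minimum of 50, which both members exceed, 1 of 295 tested genes was called. Mir221 was 1.14-fold higher in replicate 1 (95% interval 0.995 to 1.30), a log2 ratio of 0.19 with an adjusted p of 0.116 by the exact binomial test (unadjusted p = 0.0574). Mir222 was 1.08-fold higher in replicate 1 (0.915 to 1.29), a log2 ratio of 0.12 with an adjusted exact p of 0.517 (unadjusted p = 0.350). Without the minimum ratio 179 genes passed, or 43.7%, and again neither member did. The libraries therefore differed beyond counting error in many genes and are not the same counts deposited again.

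Both members leaned toward replicate 1, by amounts usual for genes of their level. Among 65 other detected genes within 2-fold of the level of Mir221, the median absolute log2 ratio between libraries was 0.17, and 29 moved more than Mir221. Among 60 genes within 2-fold of Mir222, the median was 0.16, and 38 moved more. The coefficient of variation over the 2 libraries was 9.20% for Mir221 and 5.74% for Mir222, against 4.80% and 6.0% from counting error alone. Over 372 genes the biological coefficient of variation was 0.111 (edgeR).

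**Figure D5:**
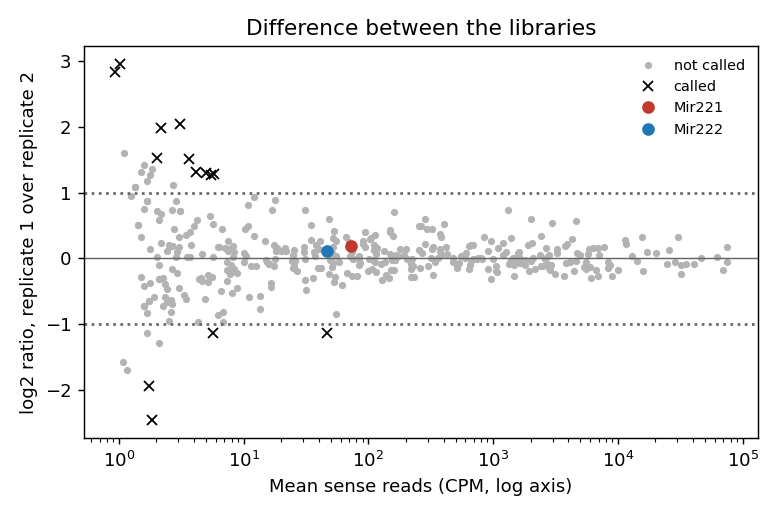
Log2 ratio of replicate 1 over replicate 2 (vertical axis) against mean CPM (horizontal log axis) for the 410 genes tested, with crosses for the 14 called genes and dotted lines at a ratio of 1 in each direction. Mir221 (red, 0.19) and Mir222 (blue, 0.12) lie close to 0 within the grey cloud.

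The known targets Cdkn1b and Kit carry matches to the shared seed in the mouse. The letters ATGTAGC, which pair with seed bases 2 to 8, were searched on the transcript strand of the longest annotated 3′ untranslated region of each gene in GENCODE M21 (GRCm38). The longer form ATGTAGCA, which contains them, adds the A that lies opposite the first base. The matches are shown with flanking bases, 5′ to 3′, and the matched letters are in capitals.
Cdkn1b: ctaaaagcattggATGTAGCA
Kit, first match: tgatgggagatatATGTAGCA
Kit, second match: tgtaaatattgaaATGTAGCA
The Cdkn1b match lies on chromosome 6 at 134924418 to 134924438, and those of Kit on chromosome 5 at 75654979 to 75654999 and 75656510 to 75656530, all on the plus strand. Of 21037 such regions, 9.46% hold ATGTAGC and 3.50% ATGTAGCA. Among the 988 within 10% of the length of the Cdkn1b region, 9.82% hold the longer form, and among the 1348 near that of Kit, 5.19%. These matches describe the sequence, and no binding or target level was measured.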

How the data were processed

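MicroRNA sequencing of 2 limb libraries was used. The authors deposited raw read counts per miRNA gene on mm10 with GENCODE M4, per the deposited file descriptions, in 3 columns (either strand, sense, antisense) after 4 lines for reads in no gene. No header names the columns, and their meaning was read from the layout and values. Which aligner and counter they used is not given in the sources used here. Of all reads in replicates 1 and 2, 17.2% and 18.6% were unmapped, 30.8% and 29.5% multimapping and 4.24% and 4.48% on the sense strand of no gene; these lines stayed out of library sizes and tests.

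Symbols and coordinates came from GENCODE M21 (GRCm38), matched for 1894 of 1973 identifiers, and sequences from RefSeq (GRCm38.p6), matched for both members. Replicates were grouped by the labels. CPM, Poisson, Clopper-Pearson and binomial statistics were computed with SciPy 1.17.1, library factors and dispersion with edgeR 4.0.16, and alternative size factors with DESeq2 1.42.0; 0.5 counts were added in ratios between libraries. The binomial test was checked on simulated counts that carried counting error only. That check does not cover the wider spread seen between these libraries. The dispersion estimate was checked on counts simulated with a known spread. The pair, lists (muscle, vessel, blood, CIP/KIP repressors, shared seed, chromosome X) and tests were chosen with earlier results of these data known. Named genes were the pair, the 5 genes nearest in level to each, seed partners, up to 4 top members per list and the neighbour pairs next in order; others are named to complete a list or count. Mir1a-2, Mir486a, Mir486b, Mir126b and Mir142 have no row under those names and were not analysed here. A gene named Mir486 had 89 and 92 sense counts in replicates 1 and 2, a mean of 15.2 CPM. It was left out of the muscle and blood lists.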

Additional observations from a re-analysis of the deposited data

How the results depend on the processing

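Leaving out a replicate gave 68.1 to 77.6 CPM for Mir221, 44.6 to 48.4 CPM for Mir222 and a log2 ratio of 0.61 to 0.68. With all reads as denominator the levels were 34.7 and 22.2 CPM. TMM and DESeq2 scaling, a total without genes sharing 22 or more bases, and both strands counted together moved Mir221 and Mir222 by less than their SD. The log2 ratio of Mir221 over Mir222 was 0.38 per hairpin base, a scale added after the data had been seen. With neighbours within 1 kb or 50 kb their median absolute ratio was 3.01 and 2.97. Genes called between libraries numbered 1 of 295 tested with a count minimum of 50. The other genes called in the main setting had under 50 counts in each library. Without a minimum ratio, which drops a criterion, 179 were called, and under the other settings 14 or 15. Mir221 and Mir222 were not called under any setting. The coefficient of variation ran from 0.107 to 0.114. Without its most abundant member the share of counts was 0.0260% for muscle, 0.683% for vessel, 0.0414% for blood, 3.32% for CIP/KIP repressors, 0.00465% for the seed list and 3.77% for chromosome X. With genes sharing 22 or more bases left out of the total, vessel held 2.78%. No counted vessel gene shares such a stretch, so only the total changed. With both strands vessel held 2.62% and blood 0.110%. No paired analysis was possible because the series has 1 group. With 268 to 460 counts per member, counting error alone in a single library of average count is 4.80% for Mir221 and 6.0% for Mir222.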
